A study of Mus musculus with 6 samples.

Results

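Loxl2, Plod2, Serpinh1, Nid2, Col4a5, Lamb3, Mmp9, Mfge8 and Spp1 are 9 genes of the basement membrane and of matrix modification among the 750 genes of a NanoString nCounter panel, which counts transcripts with barcoded probes and no amplification. They are a list of names with no threshold on a measured value, drawn up with earlier results of these data known. The study compared tumor endothelial cells (TECs) with and without the autophagy gene Atg5. TECs were isolated on day 18 from subcutaneous B16-F10 tumors, a mouse melanoma line of which 250000 cells had been injected, by CD45 depletion, CD31 enrichment and a sort of live CD45- CD31+ cells. There were 3 WT samples (replicates 1, 4 and 6), from Cre-negative littermates, and 3 Atg5BECKO samples (replicates 2, 3 and 5), from mice that carried Pdgfb-CreERT2, a Rosa26 tdTomato reporter and Atg5 fl/fl and had received tamoxifen. The strain label of all 6 was C57Blk6, and age and sex were not labelled for single samples. Whether the WT littermates received tamoxifen, and whether a sample was 1 mouse or a pool, is not given in the sources used here, and p-values here cover only the spread among the 6 samples, which may be partly technical. The Cre is driven by the Pdgfb promoter, which is active in blood endothelium, and Atg5 itself had no probe in the table, so its deletion could not be checked in these values.

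Endothelial cells rest on a basement membrane, a sheet of laminin and type IV collagen networks that nidogens help to join. Collagen chains are hydroxylated and folded in the endoplasmic reticulum, where Serpinh1 (Hsp47) acts as their chaperone and Plod2 hydroxylates lysines used for cross-links, and lysyl oxidases such as Loxl2 then form cross-links outside the cell. Secreted proteins such as Mfge8 and Spp1 (osteopontin) are bound by integrins, and the gelatinase Mmp9 cleaves matrix proteins.

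Of the 9 genes, 4 (Serpinh1, Plod2, Nid2 and Mfge8) were among the 379 genes that passed the low-signal filter of the study and were tested here, and 5 (Loxl2, Col4a5, Lamb3, Mmp9 and Spp1) were under it. None of the 4 passed a threshold. At an adjusted p under 0.05 (limma, Benjamini-Hochberg over the 379 genes) 0 of all tested genes were called, 0% of them, against 61 (16.1%) at an unadjusted p under 0.05. At the thresholds of the study, a log2 fold change of 0.7 or more in either direction with an unadjusted p under 0.05, 44 of 379 genes (11.6%) were called, 41 higher and 3 lower in Atg5BECKO, and 0 of the 4 genes were among them. Their log2 fold changes, Atg5BECKO over WT, were positive for Plod2 and Nid2 and negative for Serpinh1 and Mfge8, with a median of -0.025, beside a median of 0.24 and 74.4% positive values over all tested genes.

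The samples differed in depth and in other ways that touch these genes. Whole counts, recovered from the log2 values, summed to between 76784 (WT replicate 6) and 244561 (WT replicate 4) per sample, and WT replicate 4 lay apart on the first principal component, with 57.1% of the variance, at -13.34 against -3.41 to 6.28 in the other samples. All 12 endothelial markers passed the filter, with a mean log2 level of 10.58 to 10.90 in each sample and 0 at the thresholds. The log2 summed level of 11 fibroblast and mural cell markers was 9.56 to 10.30 in WT and 9.17 to 9.80 in Atg5BECKO. Adam12 weighed most in these sums. It was the highest of the 11 in every sample, at 8.38 to 9.08, with a log2 fold change of -0.068. Of the 4 markers of this list that were tested, 3 (Col6a3, Olfml2b and Thy1) were lower in Atg5BECKO at the thresholds. These 3 were the only lower genes among all tested genes (0.792%), so that share is no separate background for them. The marker lists were chosen with earlier results of these data known. The summed level of 16 leukocyte markers was 7.98 (replicate 4) to 9.40 (replicate 6) in WT and 8.79 to 9.09 in Atg5BECKO. Most of the 16 were under the filter. The median log2 level of all genes under the filter was likewise lowest in WT replicate 4, at 3.35, and highest in WT replicate 6, at 4.54. How far the scaling of such low counts set the spread of the sums was not tested. Of 4 tested, 1 (Cd14) was higher at the thresholds, where 10.8% of all tested genes were. In such bulk samples, fewer cells of a type and less RNA per cell cannot be told apart.

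**Figure D1:**
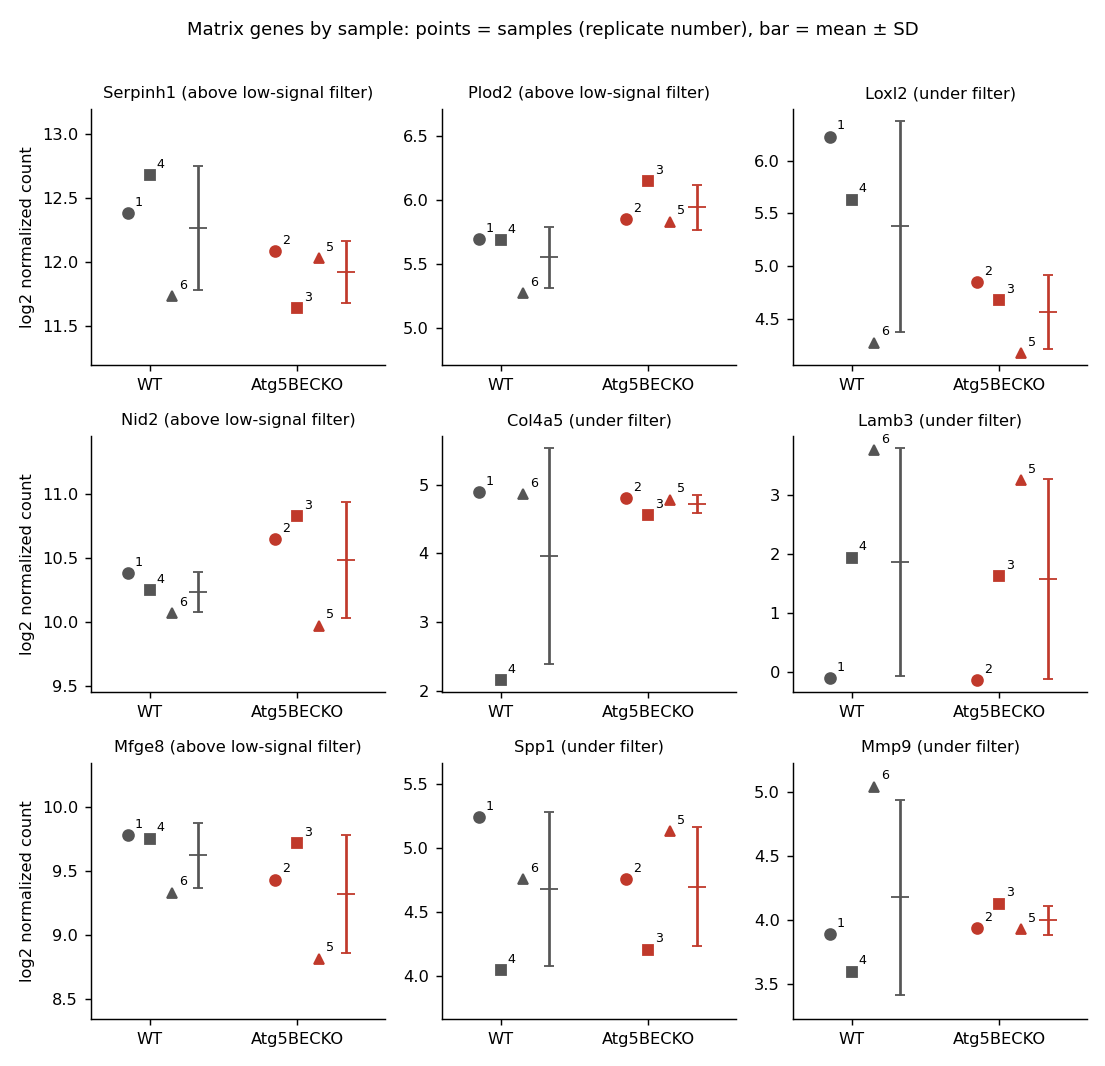
Log2 normalized count of each of the 9 genes (y axis, a scale of its own in each panel) in the 3 WT and 3 Atg5BECKO samples, with points for samples, the replicate number beside each and bars for mean ± SD. Plod2 is the 1 gene whose groups do not overlap, at 5.27 to 5.70 in WT and 5.83 to 6.15 in Atg5BECKO.

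Serpinh1 and Mfge8 were among the 5 of the 9 genes with an entry in the RefSeq promoter table (GRCm38.p6), and are shown as the tested genes it holds, both with lower mean levels in Atg5BECKO. Each line gives the 250 bases before the start of the gene, on the minus strand, 5′ to 3′, at chr7:99353240-99353489 for Serpinh1 and chr7:79149061-79149310 for Mfge8. Capitals mark the GC box GGGCGG, searched on both strands.
Serpinh1: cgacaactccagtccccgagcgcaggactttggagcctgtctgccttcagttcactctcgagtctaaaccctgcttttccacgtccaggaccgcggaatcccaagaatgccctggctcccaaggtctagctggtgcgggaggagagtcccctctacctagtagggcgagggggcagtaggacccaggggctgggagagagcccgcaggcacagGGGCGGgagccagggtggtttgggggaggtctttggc
Mfge8: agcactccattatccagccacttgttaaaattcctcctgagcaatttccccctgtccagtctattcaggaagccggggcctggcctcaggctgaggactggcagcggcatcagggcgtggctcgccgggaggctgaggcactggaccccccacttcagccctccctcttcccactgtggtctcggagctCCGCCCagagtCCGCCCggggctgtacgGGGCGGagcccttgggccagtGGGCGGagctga
The Serpinh1 window held 1 match, whose first base lay at -37 from the start, and the Mfge8 window held 4, at -61, -50, -33 and -12, none of them overlapping. Of 32851 promoter windows of this length in the table, 32.7% held the motif and 4.09% held at least 4 matches. A match describes the letters of the window and was not tested as a site.

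Among the genes of collagen maturation, Serpinh1 had lower and Plod2 higher mean levels in Atg5BECKO, both short of the thresholds. The log2 normalized count of Serpinh1 was 12.39, 12.68 and 11.73 in WT replicates 1, 4 and 6 and 12.09, 11.64 and 12.03 in Atg5BECKO replicates 2, 3 and 5, from recovered counts of 1760 to 10323. WT replicates 1 and 4 lay above all Atg5BECKO samples and WT replicate 6 lay among them, so that the groups overlapped. Serpinh1 averaged 12.27 ± 0.48 in WT and 11.92 ± 0.24 in Atg5BECKO (SD, n = 3 each), a log2 fold change of -0.35 (SE 0.28, 95% interval -1.02 to 0.33, limma adjusted p = 0.589). The difference depended on which WT sample was left out. It was -0.61 without WT replicate 6 (limma adjusted p = 0.176) and -0.14 without WT replicate 4, and -0.72 when each sample was centred on its median (adjusted p = 0.392), and the adjusted p ranged from 0.176 to 0.916 over all alternatives.

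Plod2 was the 1 gene of the 4 whose groups did not overlap, where 27.7% of all tested genes did not. All Atg5BECKO samples lay above WT for 25.6% of them, and below for 2.11%. Its log2 normalized count was 5.70, 5.69 and 5.27 in WT replicates 1, 4 and 6, from 56, 81 and 20 counts, and 5.85, 6.15 and 5.83 in Atg5BECKO replicates 2, 3 and 5, from 64, 69 and 60 counts. The lowest Atg5BECKO sample thus stood 0.14 above the highest WT sample on the log2 scale, which is less than the SD within either group. The means were 5.55 ± 0.24 and 5.94 ± 0.18 (SD, n = 3 each), a log2 fold change of 0.39 (SE 0.20, 95% interval -0.09 to 0.88, limma adjusted p = 0.379), or 1.31-fold. An exact permutation test (two-sided) gave p = 0.1, and 3 against 3 samples allow none smaller. Centring each sample on its median left a difference of 0.012, leaving out WT replicate 6 left 0.25, and the adjusted p ranged from 0.346 to 0.990 over the alternatives.

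Loxl2 was under the low-signal filter, with its 2 highest values in WT. Its log2 normalized count was 6.23, 5.63 and 4.27 in WT replicates 1, 4 and 6, from 81, 78 and 10 counts, and 4.85, 4.68 and 4.17 in Atg5BECKO replicates 2, 3 and 5, from 32, 25 and 19 counts. WT replicates 1 and 4 were above every Atg5BECKO sample, while WT replicate 6, whose 10 counts carry an exact 95% Poisson interval of 4.80 to 18.4 (counting error only), lay below Atg5BECKO replicates 2 and 3. The difference of the means, Atg5BECKO minus WT, was -0.81 (WT 5.38 ± 1.00, Atg5BECKO 4.57 ± 0.35, SD, n = 3 each, exact two-sided permutation p = 0.3). It was -0.38 without WT replicate 1 and -1.36 without WT replicate 6, and the adjusted p in a limma fit of all 750 genes was 0.861.

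Some of the fibroblast and mural cell markers were high in the same WT samples. Pdgfrb, a receptor of pericytes and fibroblasts that was itself under the filter, stood at 6.87, 5.98 and 4.12 on the log2 scale in WT replicates 1, 4 and 6 and at 4.80, 4.68 and 4.68 in Atg5BECKO replicates 2, 3 and 5. Col6a3, a type VI collagen chain, stood at 7.81, 7.23 and 5.81 in WT and 5.40, 5.08 and 5.73 in Atg5BECKO. Loxl2, Pdgfrb and Col6a3 shared the order of the 3 WT samples, with replicate 1 highest and replicate 6 lowest. This order was not particular to them. Thy1 and Col5a1 of the marker list had it, but so did Plod2, Nid2, Mfge8 and the endothelial markers Mmrn2 and Myct1. Olfml2b was instead highest in WT replicate 4, and Fap and Vcan in WT replicate 6. Of the 11 markers, Fap, Cdh11 and Vcan had higher mean levels in Atg5BECKO and the other 8 lower ones. The part of these markers in the Loxl2 values was not tested.

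**Figure D2:**
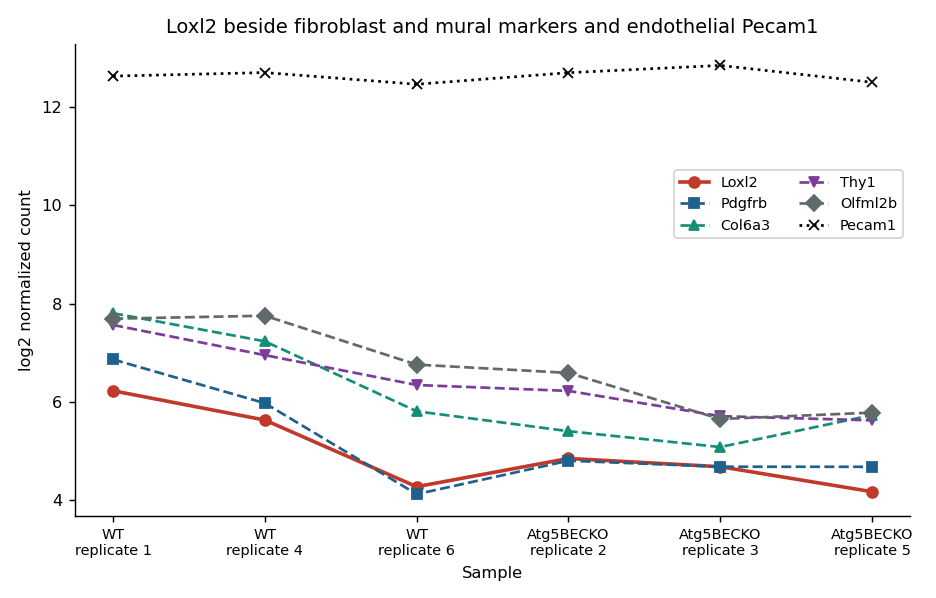
Log2 normalized count (y axis) of Loxl2, of Pdgfrb, Col6a3, Thy1 and Olfml2b (fibroblast and mural markers) and of the endothelial marker Pecam1 in each sample (x axis), with lines that only join the points of a gene. Loxl2 and Pdgfrb are highest in WT replicate 1, at 6.23 and 6.87, while Pecam1 stays between 12.47 and 12.85 in all 6 samples.

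The other 3 collagen-modifying and folding enzymes on the panel, P4ha1, P4ha2 and Ero1l, were all tested, and none of them passed the thresholds. P4ha1 and P4ha2 are catalytic subunits of prolyl 4-hydroxylases, and Ero1l is an oxidase of the endoplasmic reticulum that serves disulfide bond formation. Their log2 fold changes were all positive, as were 74.4% of those of all tested genes, whose median was 0.24. Values were 0.073 for P4ha1 (SE 0.19), 0.22 for P4ha2 (SE 0.23) and 0.49 for Ero1l (SE 0.26, limma adjusted p = 0.380). Ero1l stood at 7.37, 7.51 and 7.43 in WT replicates 1, 4 and 6 and at 7.56, 8.44 and 7.78 in Atg5BECKO replicates 2, 3 and 5. Its groups did not overlap, with the closest samples 0.05 apart. All Atg5BECKO samples lay above WT for 25.6% of all tested genes.

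Of the basement membrane genes, Nid2 (nidogen 2) was well measured and differed by less than its replicate spread. Its log2 normalized count was 10.38, 10.25 and 10.07 in WT replicates 1, 4 and 6 and 10.64, 10.83 and 9.97 in Atg5BECKO replicates 2, 3 and 5, from 554 to 1916 counts. Atg5BECKO replicates 2 and 3 were the highest samples and Atg5BECKO replicate 5 the lowest of all 6. The means were 10.23 ± 0.16 and 10.48 ± 0.45 (SD, n = 3 each), a log2 fold change of 0.25 (SE 0.26, 95% interval -0.37 to 0.87, limma adjusted p = 0.703), close to the median of all tested genes. The sign of this difference turned with median centring (-0.13) and with quantile normalization (-0.079), and its size was 0.50 without Atg5BECKO replicate 5 and 0.075 without Atg5BECKO replicate 3.

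Col4a5, a chain of type IV collagen, was low, and 1 WT sample set its difference. Its log2 normalized count was 4.89, 2.15 and 4.86 in WT replicates 1, 4 and 6, from 32, 7 and 15 counts, and 4.80, 4.56 and 4.78 in Atg5BECKO replicates 2, 3 and 5, from 31, 23 and 29 counts. WT replicate 4, the deepest sample, was the lowest, and the other 5 samples lay within 0.33 of each other on the log2 scale. Its 7 counts carry a Poisson interval of 2.81 to 14.4, which covers counting error only and is not scaled for depth. Raw counts of these samples are not directly comparable, since 1 count stood for 0.64 normalized units in WT replicate 4 and 1.94 in WT replicate 6. The difference of means was 0.75 with all samples (exact two-sided permutation p = 1) and -0.16 without WT replicate 4.

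Lamb3, the beta chain of laminin-332, which is best known from epithelial basement membranes, was at the bottom of the range. It had 1, 6 and 7 counts in WT replicates 1, 4 and 6 and 1, 3 and 10 counts in Atg5BECKO replicates 2, 3 and 5, and a recovered count of 1 may stand for 0. The groups overlapped over nearly their whole range, and no fold is given for counts this low. Lama1, an alpha chain of other laminins, had 7 to 15 counts and was under the filter too. The epithelial markers Epcam and Cdh1 were also under the filter.

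Of 5 other collagen chains on the panel, 2 were tested. Col6a3, a marker of fibroblasts as above, was lower in Atg5BECKO at the thresholds of the study (log2 fold change -1.54, SE 0.50, limma adjusted p = 0.177), with 29 to 242 counts. That call was lost with the methods' t-test and without Atg5BECKO replicate 3 (log2 fold change -1.38, limma adjusted p = 0.362). The closest samples, WT replicate 6 at 5.81 and Atg5BECKO replicate 5 at 5.73, were only 0.08 apart. Col11a1, a chain of the fibrillar type XI collagen, had a log2 fold change of 0.52 (SE 0.56, adjusted p = 0.712).

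Mfge8, which binds integrins and phosphatidylserine on dying cells, had a lower mean in Atg5BECKO that did not pass a threshold. The log2 normalized count was 9.78, 9.75 and 9.33 in WT replicates 1, 4 and 6 and 9.43, 9.72 and 8.82 in Atg5BECKO replicates 2, 3 and 5, from 333 to 1359 counts. Atg5BECKO replicate 3 lay next to WT replicates 1 and 4, and Atg5BECKO replicate 5 was the lowest sample. Mean levels were 9.62 ± 0.25 and 9.32 ± 0.46 (SD, n = 3 each), a log2 fold change of -0.30 (SE 0.28, 95% interval -0.96 to 0.36, limma adjusted p = 0.643). Without Atg5BECKO replicate 5 it was -0.047, and with median centring -0.68 (adjusted p = 0.404).

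Spp1, a secreted phosphoprotein, was under the filter, and its groups had nearly the same mean. It stood at 5.25, 4.05 and 4.76 on the log2 scale in WT replicates 1, 4 and 6, from 41, 26 and 14 counts, and at 4.76, 4.21 and 5.13 in Atg5BECKO replicates 2, 3 and 5, from 30, 18 and 37 counts. The values of the groups were interleaved, with means of 4.68 ± 0.60 and 4.70 ± 0.47 (SD, n = 3 each) and an exact two-sided permutation p of 1. Among receptors that bind such proteins, Itgav had a log2 fold change of 0.11 (SE 0.29) and Itgb3 of 0.031 (SE 0.32), both with overlapping groups, and Cd44 was under the filter with 4 to 32 counts.

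Mmp9 had nearly the same count in every sample whatever the depth. It had 16, 19 and 17 counts in WT replicates 1, 4 and 6 and 17, 17 and 16 counts in Atg5BECKO replicates 2, 3 and 5. Counts of this size were typical of the 371 genes under the filter, whose median was 12 to 19 per sample. On the normalized log2 scale Mmp9 was 3.89, 3.59 and 5.04 in WT and 3.94, 4.13 and 3.93 in Atg5BECKO, highest in WT replicate 6, the shallowest sample. The difference of means was -0.18, and 0.26 without WT replicate 6. At counts this close to the median of genes under the filter, a difference between the groups could not be resolved. Of 8 other matrix proteases on the panel, 1 (Adam12) passed the filter, with a log2 fold change of -0.068.

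**Figure D3:**
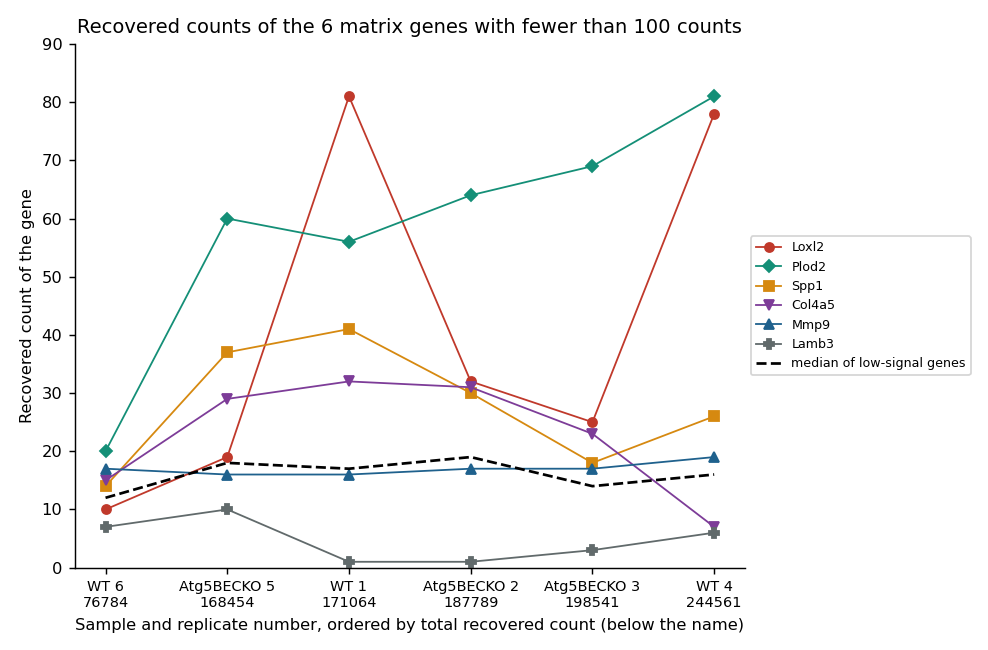
Recovered count (y axis) of the 6 genes with fewer than 100 counts in every sample, with the 6 samples on the x axis ordered by total count and the dashed line for the median of the 371 genes under the filter. Mmp9 stays at 16 to 19 counts, while Plod2 goes from 20 counts in the shallowest sample to 81 in the deepest, and Loxl2 stands out in WT replicates 1 and 4.

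The ratio of 2 genes within a sample does not depend on the factor by which that sample was scaled, and was compared for all 6 pairs of the 4 tested genes. In 3 of the 6 pairs the groups did not overlap, where 19.8% of all 71631 pairs of tested genes did not. The pairs were added after seeing the data and are not independent, since they come from only 4 genes. Plod2 and Mfge8 recur among the 3, and the groups did not overlap for Plod2 on its own. The 3 in 6 can thus not be read as an excess over 19.8%. For each of the 3 the permutation test (exact, two-sided) gave 0.1, which is its minimum here, and 0.2 after Benjamini-Hochberg adjustment over the 6 pairs.

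For Nid2 over Mfge8 the groups stood apart. The log2 ratio was 0.60, 0.50 and 0.73 in WT replicates 1, 4 and 6 and 1.21, 1.11 and 1.15 in Atg5BECKO replicates 2, 3 and 5. Every Atg5BECKO sample was thus above every WT sample, with means of 0.61 ± 0.12 and 1.16 ± 0.05 (SD, n = 3 each) and a difference of 0.55, which was 0.49 to 0.61 when any 1 sample was left out. Neither gene on its own separated the groups. Quantile normalization, which does not preserve ratios, gave a difference of 0.37 with overlapping groups.

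Plod2 over Mfge8 had a log2 ratio of -4.08, -4.07 and -4.06 in WT replicates 1, 4 and 6 and of -3.58, -3.57 and -2.98 in Atg5BECKO replicates 2, 3 and 5. The WT samples lay within 0.03 of each other, closer than the counts of Plod2 can resolve, since the 20 counts of WT replicate 6 have a Poisson interval of 12.2 to 30.9. The difference was 0.69. Plod2 over Serpinh1, the hydroxylase over the chaperone, was -6.69, -6.99 and -6.46 in WT and -6.24, -5.50 and -6.20 in Atg5BECKO, a difference of 0.74. These 2 pairs also overlapped after quantile normalization, at 0.62 and 0.69. Plod2 over Nid2, Serpinh1 over Nid2 and Serpinh1 over Mfge8 overlapped, with differences of 0.14, -0.59 and -0.046 and permutation p of 0.7, 0.3 and 1. With any 1 sample left out these ran from -0.058 to 0.27, from -0.90 to -0.28 and from -0.35 to 0.29, and those of Plod2 over Mfge8 and Plod2 over Serpinh1 from 0.49 to 0.79 and from 0.50 to 0.87.

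**Figure D4:**
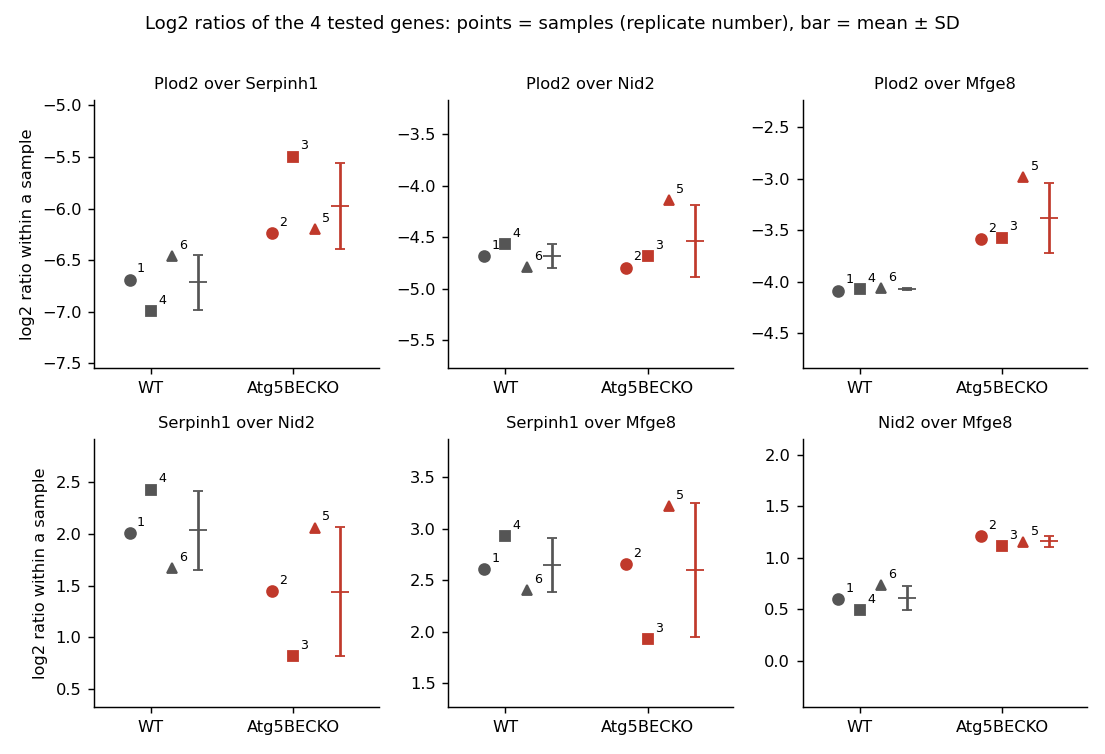
Log2 ratio within a sample (y axis, the same span in each panel) for the 6 pairs of tested genes, with points for the 3 WT and 3 Atg5BECKO samples and bars for mean ± SD. The groups stand apart for Plod2 over Serpinh1, Plod2 over Mfge8 and Nid2 over Mfge8, the last at 0.50 to 0.73 in WT and 1.11 to 1.21 in Atg5BECKO.

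The tested genes whose log2 levels went most closely with each of the 4 over the 6 samples are given as a description, since the samples share their scaling and depth. For Serpinh1 these included Cd276 and Nectin2 (Pearson r of 0.95 and 0.94), for Plod2 they were Hes1, Api5 and Ccl2 (0.96, 0.96 and 0.94), and for Nid2 Spry4, Hdac5 and Nras (0.97, 0.95 and 0.95). For Mfge8 they were Srebf1, Thbs1 and Adora2a (0.97 each). Thbs1, the matrix glycoprotein thrombospondin 1, had a log2 fold change of -0.45 (SE 0.42, limma adjusted p = 0.639). After median centring these correlations were 0.83 to 0.99.

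The panel held 36 other matrix genes on the list used here, of which 16 were tested, 10 with positive and 6 with negative log2 fold changes and a median of 0.053. At an adjusted p under 0.05 there were 0, and at the thresholds of the study 1 was higher (10.8% of all tested genes were) and 2 were lower. Of all tested genes 0.792% were lower, which were these 2 and Thy1. The higher gene was the collagen-binding integrin chain Itga1, at 6.15, 5.93 and 6.73 on the log2 scale in WT replicates 1, 4 and 6 and 7.24, 7.24 and 7.08 in Atg5BECKO replicates 2, 3 and 5. The Atg5BECKO samples lay within 0.16 of each other and above all WT samples, a log2 fold change of 0.91 (SE 0.24, limma adjusted p = 0.145), which was 0.54 after median centring and thus under the fold threshold. All 5 tested matrix receptors had positive values, the other 4 (Itga6, Itgav, Itga2 and Itgb3) between 0.031 and 0.24. Over all tested genes 74.4% of values were positive, with a median of 0.24.

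The lower genes were Col6a3 and Olfml2b, both also on the fibroblast and mural list. Olfml2b, which encodes a secreted olfactomedin-like protein, stood at 7.70, 7.76 and 6.76 in WT replicates 1, 4 and 6 and at 6.59, 5.65 and 5.78 in Atg5BECKO replicates 2, 3 and 5, a log2 fold change of -1.39 (SE 0.37, limma adjusted p = 0.145). WT replicate 6 was the lowest WT sample for both genes. The limma adjusted p of Col6a3 ran from 0.0404 without WT replicate 6 to 0.390 without WT replicate 1, that of Olfml2b from 0.0473 to 0.369 and that of Itga1 from 0.0411 to 0.369, over the 6 fits that leave out a sample. Of 5 tested matrix glycoproteins and proteoglycans, Reln was the highest, at 0.21. Vcan (versican), a proteoglycan of the same subgroup under the filter, had 8 to 42 counts, a mean of 3.52 ± 0.38 in WT and 4.62 ± 0.69 in Atg5BECKO (SD, n = 3 each) and overlapping groups. Its difference of 1.10, in the direction opposite to Col6a3 and Olfml2b, had an exact two-sided permutation p of 0.2. It was past the thresholds of the study in the limma fit of all 750 genes (adjusted p = 0.470), where 43 genes were higher and 5 lower. The Vcan counts in WT replicates 1, 4 and 6 were 11, 15 and 8, below the medians of 17, 16 and 12 for genes under the filter. Of 2 protease inhibitors on the panel, 0 passed the filter.

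**Figure D5:**
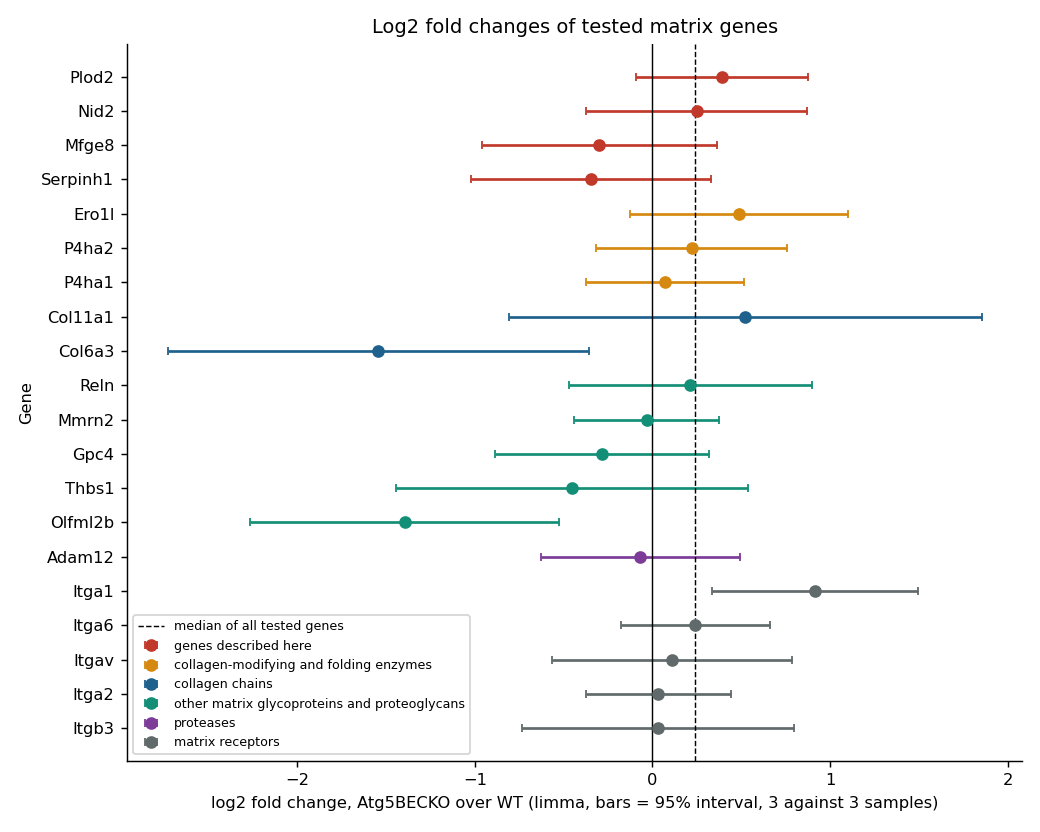
Log2 fold change, Atg5BECKO over WT, of the 4 tested genes described here and of the 16 tested genes of the matrix list (y axis), with 95% intervals from limma and the dashed line for the median of all tested genes at 0.24. The intervals of Col6a3, Olfml2b and Itga1 leave out 0, and those of Plod2, Nid2, Mfge8 and Serpinh1 include it.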

How the data were processed

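RNA of sorted TECs was counted on the nCounter, and the authors deposited log2 values of these counts after normalization in nSolver 4.0, with 1 factor per sample from housekeeping genes, without background subtraction. Which panel was run is not settled, since the genes of the table look unlike the PanCancer Mouse Immune Profiling panel that the methods name. Housekeeping and control probes were not used here. Whole counts were recovered from each sample's values as multiples of 1 unit within a tolerance of 0.01. Total counts ran from 76784 to 244561.

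The 379 tested genes are those in the differential expression table of the study, of which only the gene names were used, and not its fold changes or p-values. Log2 values of 3 against 3 samples were fitted by lmFit and eBayes of limma 3.58.1 (R 4.3.3), with Benjamini-Hochberg adjustment, after a check on simulated data. Single values were compared with exact two-sided permutation tests (scipy 1.17.1). Genes under the filter got values and permutation tests, and a limma p only from the fit of all 750 genes.

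The 9 genes, the matrix list, the marker lists and the rule for named genes were chosen with earlier results of these data known. The rule names the 9 genes, matrix genes past the thresholds or at the ends of a subgroup, and the 3 tested genes that correlate best with each tested gene. Some genes that the rule takes are not reported here. P4ha1, Lama1, Itgav and Cd44 and the markers were named beside them for context. Alternatives were other filters, scalings, tests and a pseudocount of 10, and leaving out each sample. The ratios of pairs were added after seeing the data.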

Additional observations from a re-analysis of the deposited data

How the results depend on the processing

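No paired analysis was made, since the labels used here pair no WT sample with an Atg5BECKO sample. The replicate numbers are running sample numbers from the titles. Serpinh1 and Mfge8 kept their direction and their side of an adjusted p of 0.05 under 15 alternatives, and Plod2 under 14, since it falls below a mean log2 value of 6. Nid2 turned to -0.13 with median centring and to -0.079 with quantile normalization. These 2 scalings moved the median of the tested genes from 0.24 to -0.14 and -0.050, and their counts at the thresholds of the study from 41 higher and 3 lower genes to 17 and 13 with median centring and to 21 and 9 with quantile normalization. There were 5 lower genes with no filter and 1 with the methods' t-test, which did not call Col6a3. At an adjusted p under 0.05, 20 genes were called by voom on the recovered counts (0 in the fit reported), Olfml2b and Itga1 among them. Leaving out 1 sample gave 30 to 58 higher and 3 to 4 lower genes, and 0 to 18 at an adjusted p under 0.05, the 18 without WT replicate 6. The cause was not tested. For genes under the filter, settings chosen after seeing the data included median centring (Loxl2 -1.19, Spp1 -0.36). Lamb3, Mmp9, Col4a5 and Spp1 had counts no higher than 41 in any sample, which limits their precision.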
